A study of Mus musculus with 6 samples.

Results

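The mouse Hox genes, which encode homeodomain transcription factors of body position, were examined in bone marrow stromal cells (BMSCs) of mice of 3 and 18 months. Members were chosen by symbol alone: a gene was taken where the platform annotation names it as a HoxA, HoxB, HoxC or HoxD gene and no other gene shares its probe set. This gave 33 of the 39 mouse Hox genes and 33 of the 30676 genes measured by a probe set of their own, with 1 probe set each. The other 6 were not analysed here.

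BMSCs grow attached to plastic and can give rise to bone, cartilage and fat. Both groups came from femurs that were crushed and treated with collagenase. Cells positive for Sca-1 and CD29 and negative for CD45 and CD11b were sorted, then cultured and passaged before total RNA was taken. Affymetrix arrays were hybridised with 3 samples of young (3 months) and 3 samples of aged (18 months) mice. Strain, sex and genotype are not given in the sources used here, and no treatment beyond age separates the groups. The samples are labelled as biological replicates, but the labels do not tie each to a separate animal. The p-values then cover the spread between these samples only, which may be technical. In such bulk RNA, fewer cells that use a gene and less of its RNA per cell cannot be told apart. Whether the ages were cultured or hybridised together is not given either, and the effects of batch and age cannot be told apart.

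Hox genes lie in the A, B, C and D clusters, each on its own chromosome, and a paralog number gives the place of a gene in its cluster. In the embryo, low-numbered (anterior) genes are used near the head and high-numbered (posterior) genes toward the tail and the far end of the limbs. The posterior HoxC genes are used in the hindlimb, to which the femur belongs, and stromal cells and fibroblasts of the adult are known to keep part of the Hox pattern of the place they came from. Hox proteins bind DNA together with partners of the TALE homeodomain class (Pbx, Meis and Pknox proteins), and Polycomb and Trithorax proteins keep Hox genes silent or active.

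The clusters also hold microRNA genes of the miR-10 and miR-196 families, which are known to act on Hox transcripts, and miR-615. Their mature sequences from RefSeq (GRCm38.p6) are shown because the miR-196a-2 gene lies between Hoxc10 and Hoxc9, both of which were above background here, with the seed, bases 2 to 8, in capitals. The miR-10 pair share 1 seed and the miR-196 pair another.
miR-196a-5p: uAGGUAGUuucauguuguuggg
miR-196b-5p: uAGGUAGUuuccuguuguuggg
miR-10a-5p: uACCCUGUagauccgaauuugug
miR-10b-5p: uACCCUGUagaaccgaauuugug
miR-615-3p: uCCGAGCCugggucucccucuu
The HoxC copy of miR-196a-5p lies at chr15:102973365-102973386 and the HoxB copy at chr11:96265187-96265208, both on the plus strand. The miR-196b-5p sequence lies at chr6:52230129-52230150 on the minus strand in the HoxA cluster. On the plus strand lie miR-10a-5p at chr11:96317186-96317208, miR-10b-5p at chr2:74726074-74726096 and miR-615-3p at chr15:103014969-103014990.

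Values are expression values on the log scale as deposited. The base is taken as log2 from their range, since the sources used here do not state it, and every fold rests on that. Their array medians lay between 5.37 and 5.44. No detection calls came with them, so a gene was called above background where the mean of an age exceeded 7.61, the 95th percentile of the array's negative control probe sets, whose median was 4.79. By this rule 31.7% of all genes were above background in young and 32.5% in aged cells. Background probes that match no mouse sequence (antigenomic probes) read higher where rich in G and C, and 7 of their 23 classes exceeded 7.61, with a highest mean of 8.99. Values between 7.61 and 8.99 are thus within the reach of background for some base compositions, and the base composition of the Hox probe sets is not known here. Probe sets differ in affinity, so each gene is set against the controls and against itself in the other age, not against other genes.

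Sort markers, other than Sca-1, and lineage markers were read first. Of 12 stromal markers measured, 8 were above background in both ages, among them Itgb1 (CD29), Col1a1 and Pdgfrb. Nt5e, Eng, Thy1 and Lepr were below it in both, with age means of 7.58 and 7.05, 6.53 and 6.60, 6.31 and 6.28, and 4.18 and 4.31. None of 11 blood markers and none of 5 endothelial markers was above background in either age, with Ptprc (CD45) at 3.65 ± 0.06 in young and 3.62 ± 0.0004 in aged cells (SD, n = 3 each) and Itgam (CD11b) at 5.26 and 5.24. Of 5 skeletal muscle markers 1, Acta1, was above background. The summed linear level of the blood markers was 552 to 588 in young and 608 to 616 in aged arrays, that of the endothelial markers 201 to 210 and 234 to 243, that of the muscle markers 544 to 632 and 614 to 633, and that of the stromal markers 19441 to 19894 and 27816 to 28377. The blood and endothelial sums add up values of markers that were all below background. Of the 11 stromal markers past the filter 7 rose and 2 fell with age, where 40.6% of all genes tested passed. Of the blood markers Ly6g rose, and of the endothelial markers Kdr rose and Tek fell, with age means of 5.66 and 6.56, 5.93 and 6.62, and 5.57 and 5.36, all below background. The part of these markers in the Hox differences was not tested.

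The Hox genes above background in both ages were Hoxc6, Hoxc8, Hoxc9, Hoxc10, Hoxc11 and Hoxc13, 6 of the 9 HoxC genes. None of the 9 HoxB and 7 HoxD genes measured was above background in either age. Of the 8 HoxA genes, Hoxa6 alone was above it, in young cells only and by a small margin. By position, 0 of 6 genes numbered 1 to 3, 2 of 12 numbered 4 to 8 and 4 of 15 numbered 9 to 13 were above background in both ages. Among all genes 31.7% were above it in young and 32.5% in aged cells. Young and aged cells thus had the same 6 HoxC genes above background by this rule.

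**Figure D1:**
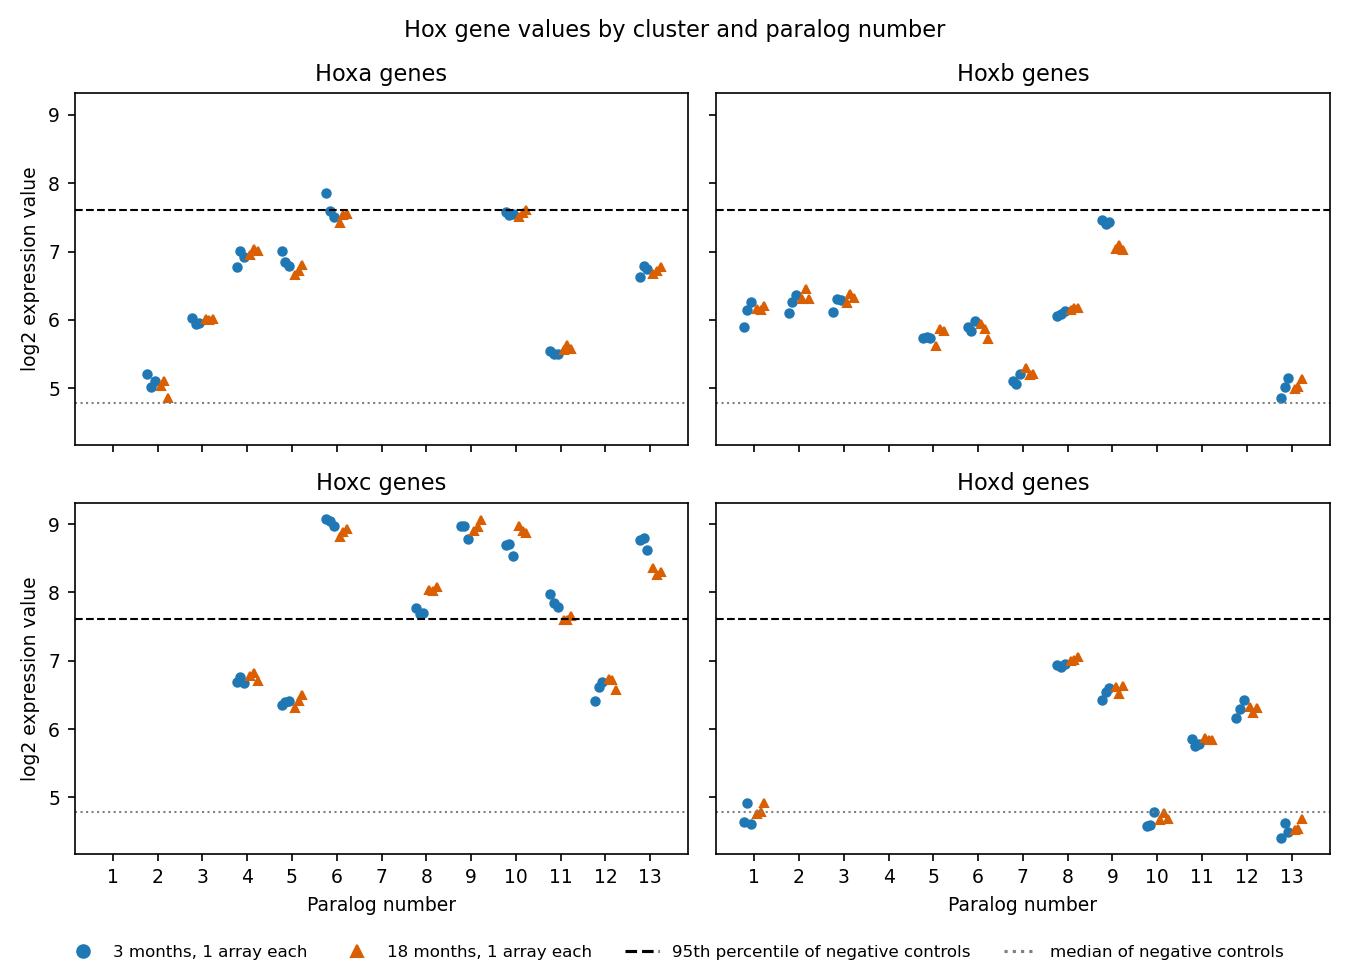
Log2 expression values of the 33 Hox genes, by cluster (panels) and paralog number (horizontal axis); circles are the 3 young arrays and triangles the 3 aged arrays, the dashed line is the 95th percentile (7.61) and the dotted line the median (4.79) of the negative controls. Points well clear of the dashed line are found in the HoxC panel alone.

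The list depended on where background was set. With the 90th percentile of the negative controls (6.95), 9 genes lay above it in both ages, Hoxa6, Hoxa10 and Hoxb9 being added. With the 99th percentile (10.04) none did. Against the highest antigenomic class (8.99), Hoxc6 in young cells was above and no Hox gene was above in both ages. The 95th percentile itself differed between arrays, at 7.82 to 7.88 in young and 7.54 to 7.62 in aged arrays. When every array of an age had to exceed its own 95th percentile, Hoxc6, Hoxc9, Hoxc10 and Hoxc13 remained in both ages, and Hoxc8 and Hoxc11 in aged cells.

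Among the central HoxC genes, Hoxc6, a gene of the thoracic region in the embryo, read 9.08, 9.04 and 8.97 in young and 8.81, 8.89 and 8.92 in aged arrays. The groups did not overlap, and the gene had 98.1% of negative controls below it. Hoxc8, which also patterns the thoracic skeleton, read 7.77, 7.68 and 7.70 in young and 8.03, 8.02 and 8.08 in aged arrays. Every aged array was above every young array, and the young values lay close to background. Hoxc4 and Hoxc5, at the anterior end of the cluster, had age means of 6.71 and 6.77, and 6.39 and 6.41, below background.

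Hoxc9, at the start of the posterior genes, read 8.97, 8.96 and 8.79 in young and 8.90, 8.96 and 9.06 in aged arrays, and the groups overlapped. Hoxc10, a gene of the hindlimb and lumbar region, read 8.70, 8.70 and 8.54 in young and 8.97, 8.90 and 8.88 in aged arrays. The aged arrays were all higher. Hoxc11, another hindlimb gene, read 7.98, 7.85 and 7.79 in young and 7.60, 7.59 and 7.65 in aged arrays. The aged mean of Hoxc11, 7.61, lay at the threshold, and 2 of its 3 arrays were below it. Hoxc13, the most posterior gene of the cluster and known for its role in hair and nails, read 8.77, 8.80 and 8.62 in young and 8.36, 8.26 and 8.30 in aged arrays, with all aged arrays lower. Hoxc12, which lies between Hoxc13 and Hoxc11, was below background at 6.41 to 6.73 over all arrays, so the genes above background did not form an unbroken run along the cluster.

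In the other clusters the values nearest to background were those of Hoxa6, Hoxa10 and Hoxb9. Hoxa6 read 7.85, 7.60 and 7.51 in young and 7.42, 7.54 and 7.55 in aged arrays, and its young mean of 7.65 rested on 1 array. Without young replicate 1, 6 genes and no longer Hoxa6 were above background in young cells. Hoxa10, a gene of the upper hindlimb and the uterus, read 7.57, 7.53 and 7.54 in young and 7.50, 7.57 and 7.61 in aged arrays, and the ages overlapped. Hoxa11, Hoxd9, Hoxd10 and Hoxd11, which are known for patterning limb segments in the embryo, had age means of 5.51 and 5.59, 6.52 and 6.59, 4.66 and 4.71, and 5.79 and 5.85, all below background. Hoxd13 and Hoxa13, genes of hands and feet, had age means of 4.51 and 4.58, and 6.72 and 6.72. The other HoxA, HoxB and HoxD genes lay between 4.61 and 7.05, inside the range of the negative controls.

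Paralogs in different clusters therefore differed in whether their probe sets were above background. The part of probe affinity and base composition in these differences was not tested. Of the paralogs numbered 13, Hoxc13 was above it, and Hoxa13, Hoxb13 and Hoxd13 were not. Of those numbered 10, Hoxc10 was above it, and Hoxa10 and Hoxd10 were not, though Hoxa10 lay within 0.1 of the threshold.

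To ask whether the ages share this pattern, the arrays were compared over the 33 Hox genes. Pearson's r across the genes was 0.993 to 0.998 between arrays of 1 age (6 pairs) and 0.986 to 0.992 between ages (9 pairs). Over all genes it was 0.996 to 0.999 and 0.989 to 0.990. These values are descriptions, since all arrays share the same probe sets and genes are not independent replicates. The median absolute difference of a Hox gene between 2 arrays was 0.06 to 0.11 within an age and 0.08 to 0.17 between ages on the log2 scale.

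With age, 2 Hox genes rose and 4 fell among the 27 past the filter on low values (limma, adjusted p under 0.05 over all 20169 genes tested). Hoxc8 and Hoxc10 rose, and Hoxc6, Hoxc11, Hoxc13 and Hoxb9 fell. With arrays centred on their positive controls 4 rose and 3 fell, and with arrays centred on their negative controls 24 rose and 0 fell, so the split between rises and falls depends on the scaling. The 6 genes are 22.2% of the Hox genes tested, beside 40.6% of all genes tested, of which 18.4% rose and 22.1% fell. This share varies with level. All 6 had a mean of 7 to 9, as had Hoxa6, Hoxa10 and Hoxc9, which did not pass. The other Hox genes tested had means below 7. Of all genes with a mean of 7 to 9, 51.1% passed. The median difference of the 27 genes was 0.05 and their median absolute difference 0.08, beside 0.01 and 0.12 for all genes tested. At a difference of at least 0.3 as well, Hoxc8, Hoxc13 and Hoxb9 passed, 3 of 27, beside 19.1% of all genes tested. Of the 6 that passed, 5 were HoxC genes above background and 1, Hoxb9, was a HoxB gene below it.

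**Figure D2:**
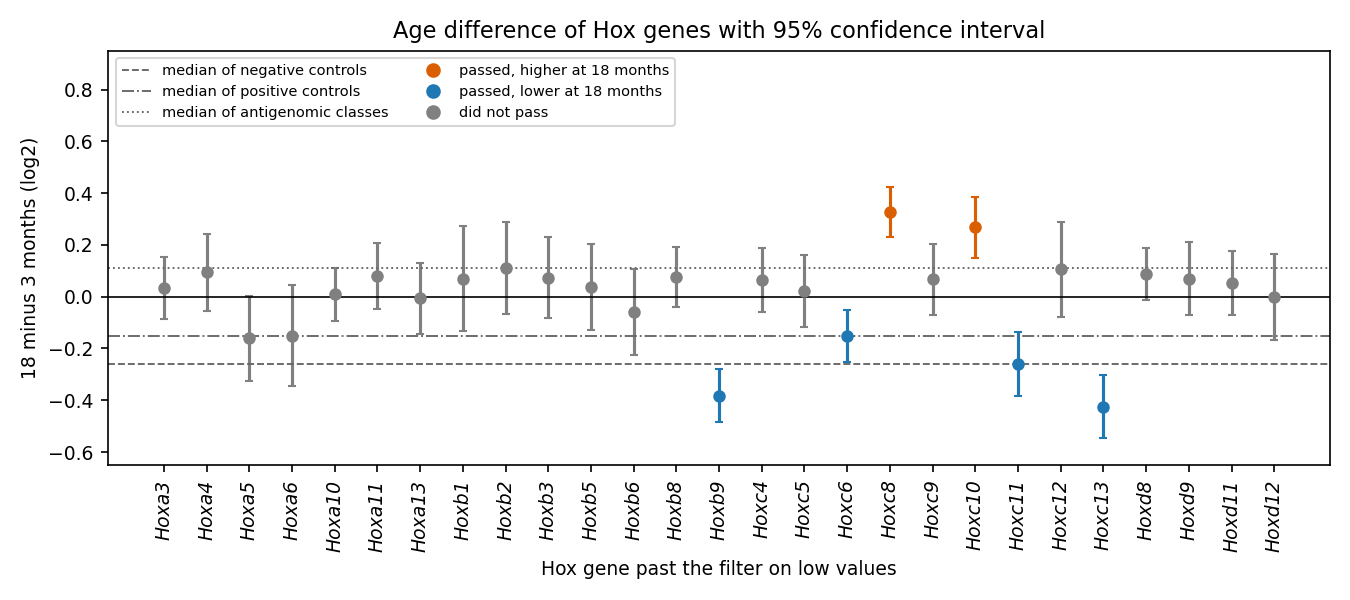
Aged (18 months) minus young (3 months) difference on the log2 scale for the 27 Hox genes past the filter on low values, with the 95% confidence interval of the limma fit; colours mark genes that passed at an adjusted p under 0.05. Grey lines give the median differences of the negative (-0.26) and positive (-0.15) controls and of the antigenomic classes (0.11), and 6 genes, 5 of them HoxC, are coloured.

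Hoxc8 rose by 0.33 (SE 0.04; limma, adjusted p = 0.000293), from 7.72 ± 0.05 to 8.04 ± 0.03 (SD, n = 3 each). No fold is given for it, as all 3 young values lay below the 95th percentile of the negative controls of their own arrays. Hoxc10 rose by 0.27 (SE 0.05; adjusted p = 0.00297 in the limma fit), or 1.20-fold. Hoxc13 fell by 0.43 (SE 0.05; limma, adjusted p = 0.00024), which is 1.34-fold lower, from 8.73 ± 0.10 to 8.31 ± 0.05 (SD, n = 3 each). For each of these 3 genes the young and aged arrays did not overlap. Hoxc11 fell by 0.26 (SE 0.05; limma, adjusted p = 0.00426), ending at the threshold.

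Hoxc6 fell by 0.15 (SE 0.04; limma, adjusted p = 0.0223), a decrease that 7 of 16 alternatives did not keep, among them median centring (adjusted p = 0.0864), the replicate number as a block (adjusted p = 0.0589), and leaving out young replicate 2, aged replicate 1 or aged replicate 2 (limma, adjusted p = 0.078, 0.103 and 0.0608). Over the 15 alternatives in which Hoxc6 was lower in aged cells its adjusted p ran from 0.00691 to 0.198, and with centring on the negative controls it was higher by 0.20 (limma, adjusted p = 0.000579). Hoxb9, a posterior HoxB gene, read 7.46, 7.41 and 7.43 in young and 7.04, 7.09 and 7.02 in aged arrays. It fell by 0.38 (SE 0.04; limma, adjusted p = 0.000154), and is given no fold, as both age means lay below background.

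**Figure D3:**
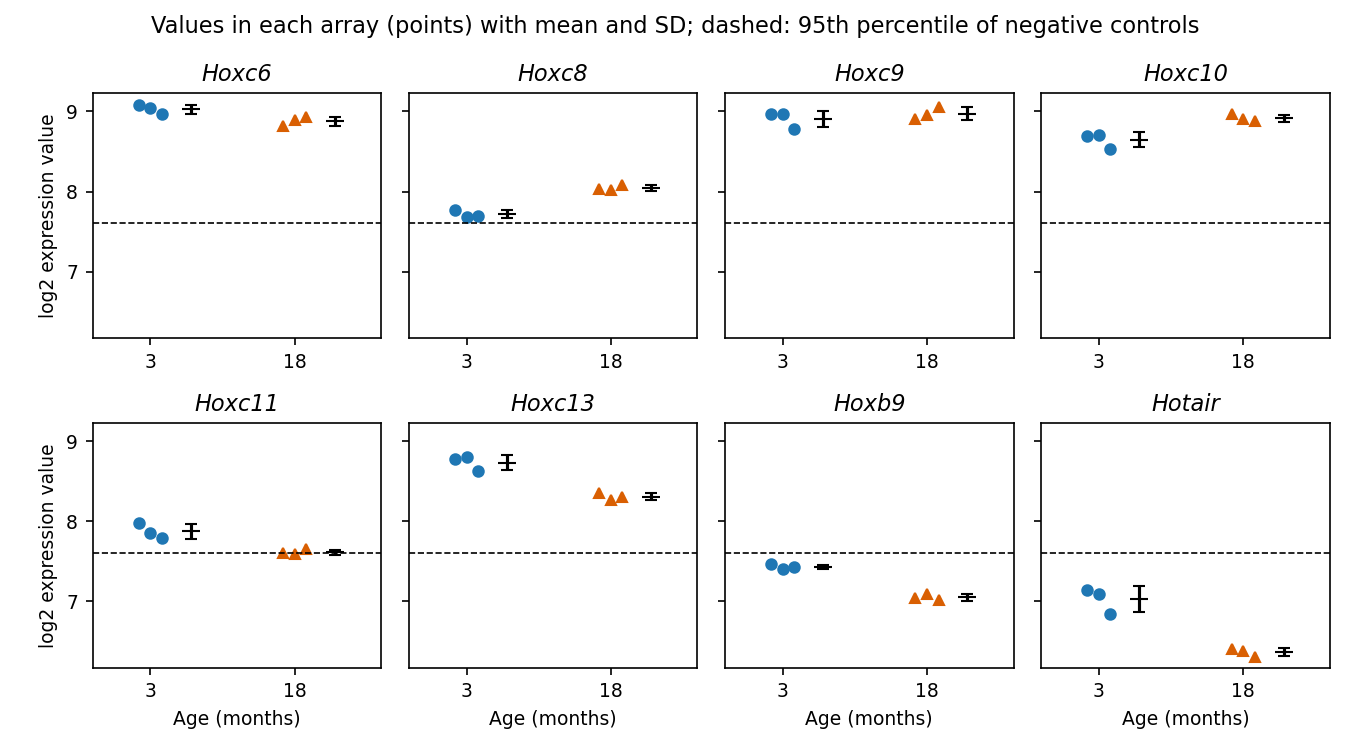
Log2 expression values in each array at 3 months (circles) and 18 months (triangles) for the 6 HoxC genes above background, Hoxb9 and the noncoding RNA Hotair, with mean and SD (n = 3) beside the points and the 95th percentile of the negative controls (7.61) dashed. Hoxc8 and Hoxc10 are higher, and Hoxc6, Hoxc11, Hoxc13, Hoxb9 and Hotair lower, in every aged array than in any young array.

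The controls of the array moved with age too. The median negative control differed by -0.26 and the median positive control by -0.15, while the antigenomic classes differed by 0.01 to 0.29. Among 406 negative controls with a mean of 7 to 9, the range of the HoxC genes above background, the median difference was -0.20 and the middle 50% lay between -0.46 and 0.00. The differences of Hoxc6, Hoxc11, Hoxc13 and Hoxb9 all lie within that middle range, and those of Hoxc8 and Hoxc10 lie above it. Beside the antigenomic classes, the rise of Hoxc10, 0.27, lies within their 0.01 to 0.29, and that of Hoxc8, 0.33, above it. Near the level of Hoxc10, the classes with 22 and 23 G and C bases rose. They read 8.86 and 8.87 in young and 9.08 and 9.11 in aged arrays. The part of these control shifts in the Hox differences was not tested. When each array was centred on its negative controls, an alternative chosen after the data were seen, all genes shifted by a median of 0.36, and Hoxc8 and Hoxc10 differed by 0.68 and 0.62, Hoxc6 by 0.20, Hoxc11 by 0.09, Hoxb9 by -0.03 and Hoxc13 by -0.07. Of genes with a mean of 7 to 9, 51.1% passed the test.

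The 21 tested Hox genes that did not pass differed by -0.16 to 0.11, and none had an unadjusted p under 0.05. Hoxc9, above background in both ages, differed by 0.07, with a 95% confidence interval of -0.07 to 0.20, so a change within those bounds cannot be told from none. For Hoxa10 the interval was -0.09 to 0.11. Hoxa5 had the lowest difference, -0.16 (limma, adjusted p = 0.114), and passed when young replicate 3 was left out (adjusted p = 0.0394). Hoxa11, Hoxb8 and Hoxd8 did not overlap between the ages, yet differed by less than 0.1 and did not pass. In all, 9 of the 27 Hox genes did not overlap between the ages, beside 51.3% of all genes tested. The remaining 6 members, Hoxa2, Hoxb7, Hoxb13, Hoxd1, Hoxd10 and Hoxd13, were below the filter at 4.41 to 5.29 in all arrays, and differed by -0.11 to 0.10. None of these 6 passed limma when no filter was used, and none had an unadjusted p under 0.05.

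Of the noncoding RNAs of the clusters, Hotair, which is transcribed from the HoxC cluster between Hoxc12 and Hoxc11, read 7.14, 7.10 and 6.85 in young and 6.41, 6.38 and 6.31 in aged arrays. The ages did not overlap, and Hotair fell by 0.66 (SE 0.08; limma, adjusted p = 0.000191), within the negative control range in both ages. It passed in all 16 alternatives, with differences from -0.75 to -0.31. Hotair was the sole member of this list past the test, of 10 past the filter and 14 measured, beside 40.6% of all genes tested that passed. Its flanking genes differed in the test: Hoxc11 fell, and Hoxc12 differed by 0.11 (limma, adjusted p = 0.354).

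Hoxb5os, which overlaps Hoxb5 and Hoxb6 and is read from the opposite strand, was the sole noncoding RNA of the list above background, at 7.63, 7.76 and 7.99 in young and 7.88, 7.87 and 7.94 in aged arrays. The ages overlapped, and Hoxb5 and Hoxb6 themselves were at 5.63 to 5.99. Hottip and Hoxa11os, RNAs of the posterior end of the HoxA cluster, were at 4.81 to 5.02 and 5.66 to 5.81 over all arrays. Hotairm1, Hoxaas2 and Hoxaas3, also of the HoxA cluster, had age means of 6.66 and 6.52, 5.65 and 5.54, and 5.84 and 5.86. Haglr and Hoxd3os1, of the HoxD cluster, and Hoxb3os lay between 5.44 and 6.39 in all arrays.

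The probe set of Mir196a-2, whose gene lies between Hoxc10 and Hoxc9, was at 4.95 ± 0.44 in young and 4.85 ± 0.20 in aged cells (SD, n = 3 each). These values were near the median of the negative controls, although both neighbouring genes were above background. Mir196a-1, Mir10b and Mir615 were also below background, with age means of 3.68 and 3.63, 2.52 and 2.60, and 6.12 and 6.23. Whether these probe sets measure the mature forms is not known here.

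Of genes of the TALE class, which includes the partners of Hox proteins, 6 of 10 measured were above background in both ages. Among all genes 31.7% were above it in young and 32.5% in aged cells. Of the 6, Pknox1 had an aged mean of 7.61, at the threshold. Every young value of Pbx2 and Meis3 lay below the 95th percentile of the negative controls of its own array. The 10 also hold Tgif1 and Tgif2, which are not among the partners named above. With age 3 of the 10 rose and 3 fell (8 and 0 with centring on the negative controls), and the median difference was -0.06, beside 18.4% that rose and 22.1% that fell among all genes tested. Those that fell were Pknox1, Tgif1 and Tgif2. Pknox2, a relative of Meis genes, read 8.45, 8.32 and 8.21 in young and 9.19, 9.18 and 9.25 in aged arrays and rose by 0.88, or 1.84-fold (limma, adjusted p = 5.09e-06). Meis3 rose by 0.31, and Tgif1, a repressor of the TALE class, fell by 0.42 (limma, adjusted p = 0.000512 and 2.35e-05). Meis1 and Meis2 differed by -0.11 and -0.02 and did not pass.

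Genes that pattern the limbs and girdles include markers of limb type. Pitx1, which specifies hindlimb, read 8.54, 8.66 and 8.41 in young and 8.74, 8.68 and 8.73 in aged arrays, above background in both. Tbx4, a hindlimb gene, and Tbx5, its forelimb counterpart, were below background, with age means of 6.53 and 6.61, and 5.49 and 5.55. Of 26 such genes 6 rose and 1 fell, beside 40.6% of all genes tested that passed and 18.4% that rose. With the replicate block 4 rose and 1 fell, with centring on the positive controls 11 and 1, and with centring on the negative controls 26 and 0. The median difference of the list was 0.08. Prrx1, a gene of limb mesenchyme, rose by 0.85 from 8.75 ± 0.06 (SD, n = 3), Dlx5, a promoter of osteoblast formation, rose by 0.85 from a young mean below background of 7.44 ± 0.13 (SD, n = 3), and Tbx15 rose by 0.26 (limma, adjusted p = 3.54e-07, 1.69e-05 and 0.000145). Pitx1 rose by 0.18 (limma, adjusted p = 0.0439), a call that 8 of 16 alternatives did not keep, with adjusted p up to 0.13, including leaving out young replicate 1 or 3 or any 1 aged replicate.

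The ParaHox genes, such as Cdx2, and other homeobox genes (Evx1, Evx2, Mnx1, Gbx1, Gbx2, Meox1 and Meox2) were below background in all 13 cases. None of the 11 past the filter passed limma, beside 40.6% of all genes tested. Among them 1, Gsx1, had an unadjusted p under 0.05, and it passed in 8 of 16 alternatives (limma, adjusted p = 0.0524 as deposited, 0.000601 at the lowest). With centring on the negative controls all 11 rose, beside 16759 genes higher and 764 lower among all tested.

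**Figure D4:**
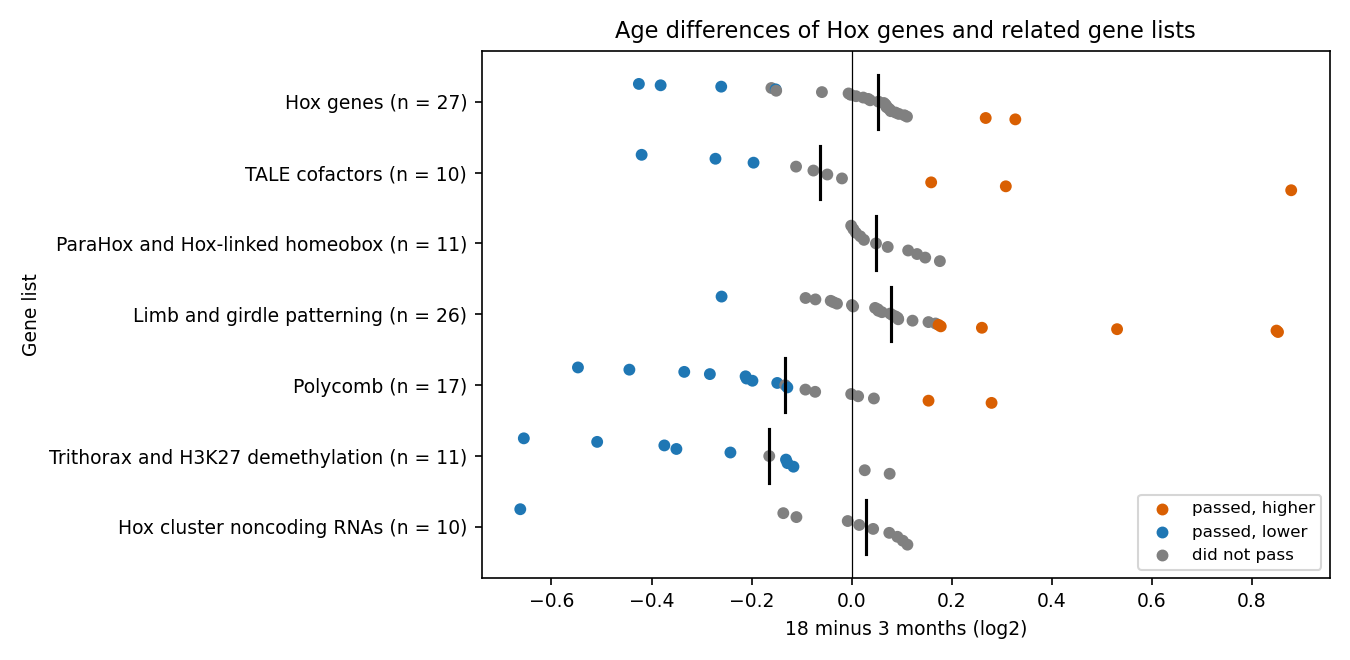
Aged minus young difference on the log2 scale of each gene past the filter, for the Hox genes and the 6 related lists; vertical bars are list medians and colours mark genes that passed at an adjusted p under 0.05. Hox genes that passed lie between -0.43 and 0.33. On the Trithorax and H3K27 demethylation list 8 of 11 genes fell as the values were deposited, though 2 fell and 7 rose with centring on the negative controls.

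Among the chromatin proteins that keep Hox genes off, 9 of 17 Polycomb genes fell and 2 rose (1 and 13 with centring on the negative controls), while 22.1% of all genes tested fell and 51.1% of those with a mean of 7 to 9 passed in either direction. Ezh1, Rbbp7, Bmi1 and Rnf2 had means above 9, and Jarid2 a mean below 7, outside that range. The median difference of the 17 Polycomb genes was -0.13, beside -0.15 for the positive controls. Suz12, a core subunit of the H3K27 methyltransferase complex, read 9.11, 9.18 and 9.24 in young and 8.64, 8.67 and 8.58 in aged arrays and fell by 0.55. Rnf2, the ubiquitin ligase of the other Polycomb complex, fell by 0.44, and Ezh2, the H3K27 methyltransferase, fell by 0.33 (limma, adjusted p = 1.31e-05, 2.19e-05 and 0.000106 for the 3 genes). Ring1 and Jarid2 rose by 0.28 and 0.15. Ring1 was below background in young cells, and Jarid2 in both ages.

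On the Trithorax and H3K27 demethylation list 8 of 11 genes fell and 0 rose (2 and 7 with centring on the negative controls). The median difference was -0.16. The 11 also hold Dot1l, which fell, and Ctcf, which did not pass. Neither is a Trithorax protein or an H3K27 demethylase. Of all genes tested 22.1% fell, and 51.1% of those with a mean of 7 to 9 passed in either direction. Men1, Rbbp5, Psip1, Kdm6a, Kdm6b and Ctcf had means above 9, outside that range. Kmt2a, the H3K4 methyltransferase that keeps Hox genes active, read 9.33, 9.25 and 9.17 in young and 8.62, 8.57 and 8.60 in aged arrays and fell by 0.66. Kdm6a, an H3K27 demethylase, fell by 0.51, and Rbbp5, a partner of Kmt2a, fell by 0.37 (limma, adjusted p = 5.15e-06, 5.8e-06 and 6.55e-05 for the 3 genes). The count depended on the scaling: with median centring 5 of the 11 fell and 0 rose. With arrays centred on the positive controls, 5 of the 11 fell and 2 rose, and 5 of 17 Polycomb genes fell and 3 rose. Suz12, Kmt2a and Kdm6a passed with a decrease in all 16 alternatives, while Rnf2, Ezh2 and Rbbp5 did not pass with centring on the negative controls.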

How the data were processed

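The deposited table holds the authors' log2 expression values (base taken from their range), 1 per probe set and array, and was used without further scaling. MAS5, with no version, is named per the submitters' processing notes; background correction, scaling and summarisation are not given in the sources used here. Groups and replicate numbers came from the sample titles. Of 72688 probe sets, 31221 had 1 gene after symbols were updated through the RefSeq table of GRCm38.p6. Per gene the probe set with the highest mean of the 6 arrays was kept. Tests were run on genes whose mean reached 5.40, which is the median over transcript clusters. Ages were compared by limma 3.58.1 in R 4.3.3 (lmFit, eBayes with an intensity trend), with Benjamini-Hochberg adjustment over all 20169 genes. The test was checked on simulated data without a shift of whole arrays, so that check does not bear on scaling or batch. With 3 arrays per age, precision is limited by their number. Alternatives changed the scaling, the filter, the variance model, the threshold for background and the probe set per gene, added the replicate block, or left out 1 array. The members and lists were chosen with earlier results of these data known. Named genes were every Hox gene above background, the 3 with the smallest p of each list, limb identity genes and cluster noncoding RNAs. Figures were drawn with matplotlib 3.10.9.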

Additional observations from a re-analysis of the deposited data

How the results depend on the processing

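The direction of Hoxc8, Hoxc10, Hoxc13 and Hoxb9 was kept under all 16 alternatives, and Hoxc8 and Hoxc10 passed in all of them. For these genes the direction could change only with the scaling or with an array left out. The filter, the variance model, the replicate block and the mean over probe sets (1 per Hox gene) leave the difference itself unchanged. The number of Hox genes past the test stayed between 5 and 7 when 1 array was left out. Replicate numbers did not pair the arrays (r of same-numbered deviations -0.05, 0.07 and 0.02), and with the replicate block 5 Hox genes passed, Hoxc6 being lost (adjusted p = 0.0589).

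Centring on the negative controls, added after the data were seen, had the largest effect, as it adds 0.36 to the median gene. It gave 24 Hox genes higher and 0 lower (limma; 24 in all), and 16759 genes higher and 764 lower among all tested (17523 in all). Directions then reversed for Hoxa5 (0.19), Hoxa6 (0.20), Hoxa13 (0.35), Hoxb6 (0.30), Hoxc6 (0.20), Hoxc11 (0.094) and Hoxd12 (0.35). Hoxb9 and Hoxc13 did not pass. Centring on the positive controls gave 4 Hox genes higher, and 5930 genes higher and 2873 lower among all. With a difference of at least 0.3 required, also added, 3 Hox genes passed, 1 higher and 2 lower, as did 3862 of all genes, 1955 higher and 1907 lower.

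Above background in both ages were 0 Hox genes against the 99th percentile of the negative controls (0 in young, 0 in aged) and 0 against the highest antigenomic class (1 in young, 0 in aged). In aged cells 11 exceeded the 90th percentile, and in young cells 4 did so when every array had to exceed its own threshold. Leaving out any 1 aged array moved the threshold and left 5 in both ages, Hoxc11 being lost, and quantile normalization did the same. No detection calls and no G and C content of the probes were at hand, which limits every statement on background.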
